A study of Sus scrofa with 42 samples.

Results

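The 4- to 8-cell transition of pig parthenotes was described from single blastomeres, comparing 3 blastomeres of 1 parthenogenetically activated (PA) embryo at the 8-cell stage with 7 blastomeres of 3 PA embryos at the 4-cell stage. These are 10 of the 42 cells of the series, and the 2 other PA 4-cell blastomeres (1-4 and 2-1) were left out because their values nearly repeat those of PA 2-cell blastomeres 1-2 and 2-1 (Pearson's r = 0.9988 and 0.9989, against at most 0.9307 in any other of the 861 pairs of cells). A parthenote develops from an oocyte without sperm and carries maternal chromosomes only. Here in vitro matured oocytes of slaughterhouse gilts received electric pulses, then 6-dimethylaminopurine and cytochalasin B, and blastomeres were taken 48 h (4-cell) and 72 h (8-cell) after the pulses. In vitro fertilized (IVF) embryos of the same stages, timed from the end of incubation with sperm, served for comparison (9 blastomeres of 3 4-cell embryos and 3 blastomeres of 1 8-cell embryo). Neither a breed nor a strain is given in the sources used here, and the 4-cell embryos are represented by 1, 3 and 3 blastomeres.

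Early mammalian embryos live on RNA and protein that the oocyte stored, and pass to transcription of their own genome while the stored transcripts are cleared. This maternal-to-zygotic transition combines poly(A)-tail shortening and decay of maternal mRNAs with the first large wave of transcription, which in the pig is placed around the 4-cell stage. The stages that follow are known for the build-up of ribosomes, translation factors and mitochondrial proteins. They are also known for the loss of oocyte transcripts, such as those for zona pellucida proteins and the maternal DNA methylation machinery. The question of the comparison is which genes rise and fall once this transition is under way in embryos that have no paternal genome.

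All 10 libraries carried oocyte transcripts and few or no transcripts of other cell types. Of 48 oocyte and maternal-effect genes in the table, 35 reached an FPKM (fragments per kilobase of gene length, scaled to the sequenced fragments) of 1 in at least 1 4-cell blastomere and 11 in at least 1 8-cell blastomere. These counts run over 7 and 3 blastomeres and are not comparable. Within single blastomeres, 12 to 21 of the 48 genes reached 1 at the 4-cell stage and 5, 8 and 8 at the 8-cell stage. Summed over these genes, FPKM ranged from 1530 to 4832 in 4-cell and from 209 to 351 in 8-cell blastomeres. The 14 cumulus and granulosa markers summed to 0.439 to 32.4 and 0.0864 to 84.0 FPKM, with 2 of them at 1 or more in any blastomere at each stage, and CD44, VIM, COL3A1, INHBA and INHBB were listed at 0 in all 10. Within the cumulus list, 1 gene was called, NR5A2, with 83.0 FPKM in 1 8-cell blastomere and 0.0635 and 0 in the others, a call lost without the first, and the 6 leukocyte markers in the table summed to at most 0.0175 FPKM. Reads on genes, recovered from the FPKM steps, were 7124861 to 9706158 per 4-cell and 9334233 to 18810466 per 8-cell blastomere. PA 8-cell-1-4 stood apart from the other 9 blastomeres: 253 genes had exactly 1 read in it, against 1157 to 1386, and 3481 genes had an FPKM above 0, against 5077 to 5920, while 2211 genes had an FPKM of at least 1, against 1124 to 1992. Its part in the results was not tested beyond leaving it out.

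The promoters of genes from both sides of the transition are shown first, to place the members in the genome. Of the 8012 tested genes on a chromosome, 3404 had a start in the table within 100 bases of the RefSeq start, and for these the 250 bases upstream were read from Sscrofa11.1 on the gene's strand. The 3 ribosomal protein genes below rose, and KPNA7, an oocyte importin, and ZP4, a zona pellucida glycoprotein, fell. Capitals mark matches, on either strand, to 8 sets of letters: the GC box GGGCGG, the CCAAT box CCAAT, the ETS core CCGGAAG, the NRF1 core GCGCATG, the YY1 core GATGGCG, the E box CACGTG, the CRE TGACGTC and the TATA box TATAAA, none of which contains another.
RPL4, chr1:164481847-164482096, minus strand: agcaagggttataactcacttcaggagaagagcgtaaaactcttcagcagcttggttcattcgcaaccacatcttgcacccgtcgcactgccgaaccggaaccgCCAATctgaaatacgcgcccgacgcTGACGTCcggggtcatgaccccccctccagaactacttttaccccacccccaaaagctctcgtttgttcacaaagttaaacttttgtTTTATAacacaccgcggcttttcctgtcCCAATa
RPL21, chr11:4731449-4731698, plus strand: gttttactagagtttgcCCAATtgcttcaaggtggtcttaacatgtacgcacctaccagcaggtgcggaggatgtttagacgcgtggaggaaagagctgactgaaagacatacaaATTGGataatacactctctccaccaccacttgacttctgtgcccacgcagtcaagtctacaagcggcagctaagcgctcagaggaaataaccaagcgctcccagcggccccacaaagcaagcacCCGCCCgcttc
RPS12, chr1:30923431-30923680, minus strand: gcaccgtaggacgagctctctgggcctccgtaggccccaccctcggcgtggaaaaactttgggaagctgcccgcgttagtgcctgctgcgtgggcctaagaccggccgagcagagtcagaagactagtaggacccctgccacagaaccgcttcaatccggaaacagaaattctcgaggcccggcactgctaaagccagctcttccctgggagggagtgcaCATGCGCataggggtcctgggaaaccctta
KPNA7, chr3:6201260-6201509, minus strand: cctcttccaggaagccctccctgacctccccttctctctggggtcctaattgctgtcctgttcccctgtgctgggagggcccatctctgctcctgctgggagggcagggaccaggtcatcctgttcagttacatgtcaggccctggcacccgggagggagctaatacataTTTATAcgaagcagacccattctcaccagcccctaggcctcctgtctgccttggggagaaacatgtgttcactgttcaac
ZP4, chr14:53576881-53577130, plus strand: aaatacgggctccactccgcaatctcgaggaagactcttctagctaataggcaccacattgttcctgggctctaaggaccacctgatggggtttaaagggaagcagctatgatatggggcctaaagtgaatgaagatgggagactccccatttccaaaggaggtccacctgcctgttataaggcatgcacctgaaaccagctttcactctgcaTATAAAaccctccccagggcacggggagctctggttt
The RPL4 window held CCAAT boxes 146 and 6 bases before the start and a CRE 121 bases before it. It also held the TATA letters 34 bases before the start, on the opposite strand. In RPL21 the matches were a GC box at 11 and CCAAT boxes at 233 and 135 bases, and in RPS12 an NRF1 core at 30 bases. KPNA7 and ZP4 each held the TATA letters, in KPNA7 on the opposite strand 80 bases before the start and in ZP4 on the gene's strand 37 bases before it. The window of BMP15, another oocyte gene that fell, held no match to any of the 8 sets and is not printed. Among all 3404 promoters, 5.23% held the TATA letters, against 3 of the 14 oocyte and maternal-effect genes with a promoter (21.4%). The TATA letters also stood in 5 of 44 ribosomal protein promoters (11.4%) and in 5 of 61 of genes that fell (8.2%). The CRE stood in 5.26% of all promoters and in 8 of 44 ribosomal protein promoters (18.2%), and the ETS core in 15.5% of all, 13 of these 44 (29.5%), 70 of 332 promoters of genes that rose (21.1%) and 7 of 61 of genes that fell (11.5%). The GC box was about equally frequent in all promoters (64.6%), in those of genes that rose (64.2%) and in those of ribosomal proteins (65.9%), and stood in 6 of the 14 oocyte and maternal-effect promoters (42.9%). A match is a run of letters and was not tested for binding.

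From the 4- to the 8-cell stage, 660 genes rose and 133 fell, so that 83.2% of the 793 called genes were higher at the 8-cell stage. A gene was called at a limma adjusted p (Benjamini-Hochberg over all 8033 genes tested) below 0.05 where it also changed at least 2 times, with the embryo as the unit. The rises are 8.22% of the genes tested and the falls 1.66%. For the same stages the study reports the opposite balance, with more genes lower than higher. It used DESeq2 and names no PA 4-cell blastomere as left out. The cause of this difference was not tested. Because only 1 8-cell embryo was sequenced, its spread was borrowed from the other groups, 1- and 2-cell embryos included. A gene near 0 in all other groups can thus get a small SE, however much its 8-cell sisters differ. The SE of a gene's log2 fold change had a median of 1.18, while the log2 fold changes themselves had a median of -0.003 over all genes. At an unadjusted p below 0.05 there were 1558 genes. Fitted on the PA 4- and 8-cell embryos alone, limma called no gene of 2354 tested, with 267 at an unadjusted p below 0.05, so that the calls rest on the spread of all groups. Without PA 4-cell-1-3, the lone blastomere of its embryo, 582 genes rose and 232 fell.

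**Figure D1:**
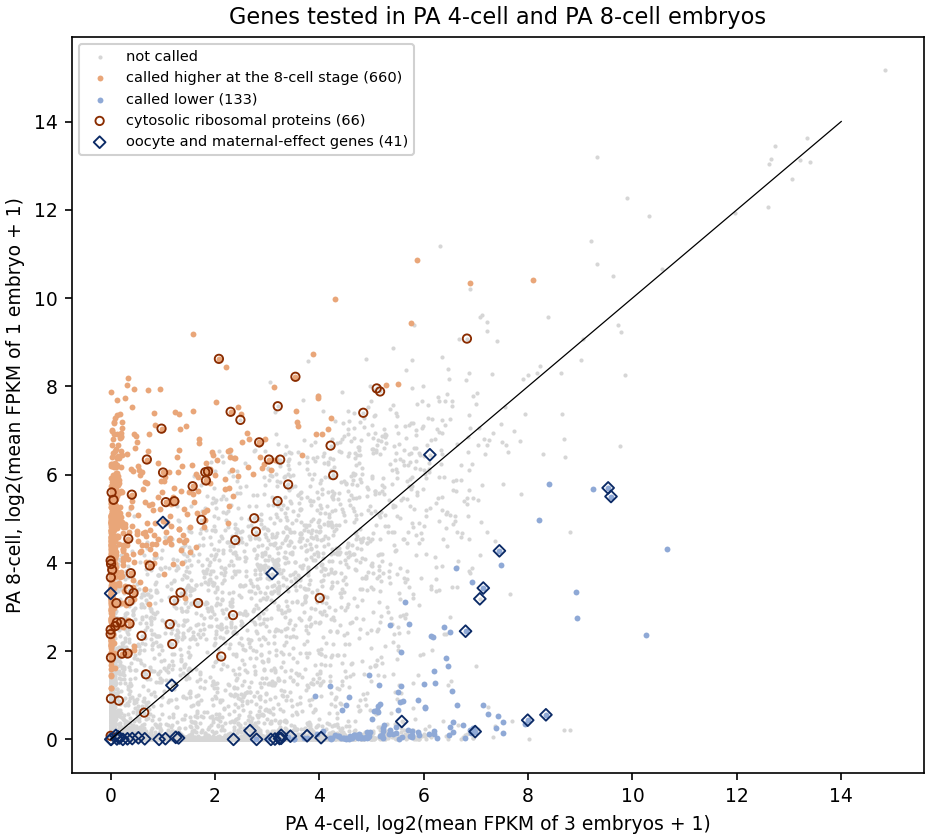
Mean expression of the 8033 tested genes, with log2(mean FPKM + 1) of the 3 PA 4-cell embryos on the x axis and of the PA 8-cell embryo on the y axis, the line of equal values in black. Of the points, 660 (orange) were called higher and 133 (blue) lower at the 8-cell stage, 35 of the 66 circled ribosomal protein genes were called higher, and 8 of the 41 oocyte and maternal-effect genes (diamonds) were called lower and 1 higher.

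Most genes that rose came from very low levels. The median of log2(mean FPKM + 1) over the 660 was 0.93 in PA 1-cell, 0.57 in 2-cell, 0.08 in 4-cell and 4.82 in 8-cell embryos. In 436 of them (66.1%) no 4-cell blastomere reached an FPKM of 1. Among genes not called the share was 42.4%. The calls, in both directions, were made from these same 4- and 8-cell values. Shares and medians in this paragraph that use those values therefore follow in part from the selection. In IVF embryos the same 660 genes had medians of 1.23, 1.13, 1.72 and 2.19 at the 4 stages. By group means, 267 of the 660 (40.5%) were under 1 at the PA 1-, 2- and 4-cell stages, against 16.6% of genes not called, and 239 (36.2%) were at 1 or more in the 1-cell and under 1 in the 4-cell embryos, against 30.5%. The genes that fell went the other way, with medians of 4.94, 4.98, 5.55 and 0.22 at the 4 stages, and 118 of 133 (88.7%) already had a mean FPKM of at least 1 in PA 1-cell embryos, against 67.8% of genes not called. In 82 of the 133 (61.7%) no 8-cell blastomere reached 1, a share like the 64.8% among genes not called.

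Rises could rest on single sister blastomeres. FPKM was averaged over the sisters before the log, so that 1 high sister can make a rise while a fall needs all 3 low, and the shares of the 2 directions below are not compared for that reason. Of the genes that rose, 299 (45.3%) had an FPKM of at least 1 in 1 of the 3 8-cell blastomeres, 211 (32.0%) in 2 and 150 (22.7%) in all 3. All 3 8-cell blastomeres lay above all 7 4-cell blastomeres in 186 of the 660 (28.2%), against 3.55% of all genes tested, and all 3 lay below all 7 in 56 of the 133 that fell (42.1%), against 2.75%. These counts use the same contrast as the calls. In each of the 3 fits that left out 1 8-cell blastomere, 167 of the 660 (25.3%) were still called higher, and 111 of the 133 (83.5%) were still called lower. Without PA 8-cell-1-4 alone, 577 genes rose and 171 fell.

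By chromosome, 36 of 284 tested X-linked genes rose (12.7%), against 623 of 7723 autosomal genes (8.07%), and 7 X-linked genes fell (2.46%), against 126 (1.63%). The median log2 fold change was -0.002 on the X chromosome and -0.003 on autosomes. Among the X-linked genes that rose were PABPC5, SLC6A8, RPS4X, XIAP and STAG2, all described below.

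The clearest switches were genes at an FPKM of at least 1 in every blastomere of one stage and in none of the other. There were 61 such genes at the 8-cell stage, of which 53 were called, and 16 at the 4-cell stage, of which 14 were called. These 77 genes come straight from the blastomere values and were not chosen by a test. The 61 are 0.759% of the genes tested and the 16 are 0.199%. A gene had to reach 1 in 3 blastomeres of 1 embryo for the 61, and in 7 blastomeres of 3 embryos for the 16. The sizes of these sets are therefore not comparable. The first set held 10 of 66 tested ribosomal protein genes (RPL11, RPL18, RPL30, RPL36A, RPL37A, RPL39, RPLP2, RPS18, RPS26 and RPS4X), 3 of 51 translation factors (EEF1D, EIF2S1 and EIF2S3), ATP5H and NDUFA4 of the respiratory chain, MRPL1 of the mitochondrial ribosome, and MED7 and POLR2F of the transcription machinery. Other single members were SLC34A2, a phosphate transporter, SLC6A8, the creatine transporter, FOLR1, a folate receptor, and TMED10 and COPE of the vesicle coats between endoplasmic reticulum and Golgi. The second set included KPNA7 and IPO8, both importins, DSTN, which severs actin filaments, FMNL2, a formin that elongates them, BICC1, an RNA-binding protein, MT1X, a metallothionein, and ACCSL, SYCN, VPS50, RBM7, MLEC, ZNF664 and 3 genes without a symbol.

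**Figure D2:**
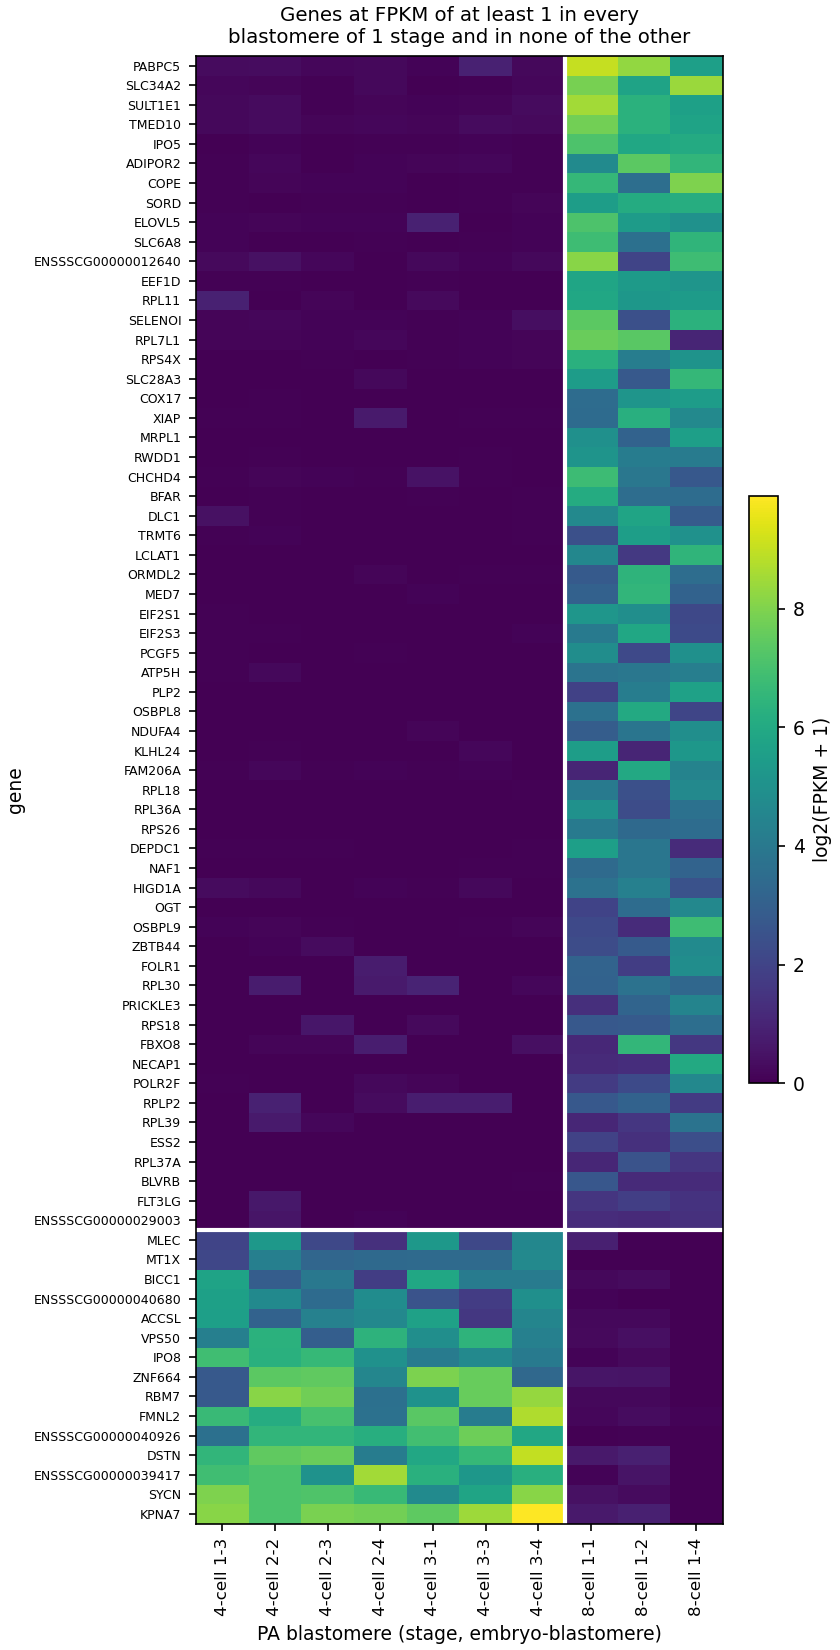
Heat map of log2(FPKM + 1) in the 7 PA 4-cell and 3 PA 8-cell blastomeres (columns, embryo-blastomere) for 60 of the 61 genes at an FPKM of at least 1 in all 3 8-cell and in no 4-cell blastomere (upper rows) and 15 of the 16 genes with the reverse (lower rows). Levels of the upper genes vary among the 3 sister blastomeres, from 46.9 to 514 FPKM for PABPC5 in the top row.

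SORD, which turns sorbitol into fructose, was at 44.5, 66.7 and 70.6 FPKM in 8-cell blastomeres 1-1, 1-2 and 1-4, against a lowest, median and highest of 0.017, 0.033 and 0.0849 in the 4-cell blastomeres. The groups did not overlap (log2 fold change 5.89, limma adjusted p = 2.5e-06), and this and all further fold changes are on the log2(FPKM + 1) scale, which understates them for low genes. SLC6A8 was at 114, 11.7 and 88.5 FPKM, against at most 0.071 (6.12, limma adjusted p = 9.3e-08), and overlaps BCAP31 on the other strand. FOLR1 was at 7.91, 2.52 and 27.6 FPKM, against at most 0.706 (3.67, limma adjusted p = 4.98e-05). PLP2, a membrane protein of the endoplasmic reticulum, was listed at 0 in all 7 4-cell blastomeres and at 2.74, 17.5 and 49.4 FPKM in the 8-cell blastomeres.

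Among the 10 largest rises of protein-coding genes with a symbol and groups that did not overlap, AEBP2, a cofactor of the Polycomb repressive complex PRC2, came first. Its FPKM was 0.257, 0.442 and 11.4 (lowest, median and highest) in 4-cell blastomeres and 816, 462 and 463 in 8-cell blastomeres. The log2 fold change was 7.90 (SE 1.64, limma adjusted p = 0.00392). PABPC5 (chrX:74142589-74145900, plus strand), an X-linked member of the poly(A)-binding proteins that coat mRNA tails, went from at most 0.891 FPKM to 514, 313 and 46.9 (log2 fold change 7.86, SE 0.55, limma adjusted p = 9.3e-08). SLC34A2 went from at most 0.171 FPKM to 230, 51.8 and 336. SULT1E1, the estrogen sulfotransferase, went from at most 0.219 FPKM to 370, 78.7 and 48.2, and HIPK3, a nuclear kinase, from at most 1.41 to 258, 166 and 129. In these 5 genes every 8-cell blastomere was high, and all 5 were called in each fit without 1 8-cell blastomere.

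The other 5 of the 10 were carried by some sisters only. GAR1, a protein of the H/ACA small nucleolar particles that modify ribosomal RNA, was at 0.638, 222 and 264 FPKM in 8-cell blastomeres against at most 0.266, and MPC1, a subunit of the mitochondrial pyruvate carrier, at 0.26, 129 and 247 against at most 0.138. BZW2, which overlaps ANKMY2 on the other strand, was at 366, 0.248 and 71.4 FPKM against at most 0.231. These 3 were called without any 1 of the 8-cell blastomeres. TIMM17A, a subunit of the mitochondrial inner membrane translocase, was at 0.251, 429 and 2.9 FPKM against at most 0.137, and RHOC, a small GTPase that overlaps MOV10 on the other strand, at 0.113, 376 and 6.28 against at most 0.0657. The calls of TIMM17A and RHOC were lost without at least 1 of the 8-cell blastomeres.

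Among protein-coding genes with a symbol, the 10 largest falls with groups that did not overlap ran from -7.68 to -6.16 on the log2 scale. KPNA7 and PTTG1, described below, led them. HMGB3, a chromatin protein of the high mobility group, had 0.802, 216 and 481 FPKM (lowest, median and highest) in 4-cell blastomeres and 0.412, 0.434 and 0 in 8-cell blastomeres, and PAXBP1 had 0.166, 154 and 329 against 0.158, 0.159 and 0. SYCN, known as a secretory granule protein of the pancreas, had 25.4, 135 and 280 FPKM against 0.351, 0.215 and 0. FMNL2 had 11.8, 103 and 419 FPKM against at most 0.249, and DSTN 16.6, 98.9 and 512 against at most 0.838. In KPNA7, PTTG1, SYCN, FMNL2 and DSTN every 4-cell blastomere was high, whereas HMGB3, PAXBP1, ZP4, UGP2 and CHODL were under 1 FPKM in at least 1 of them. UGP2, which makes UDP-glucose and overlaps VPS54, had 0.511, 77.4 and 168 FPKM in 4-cell and at most 0.489 in 8-cell blastomeres, and CHODL, a membrane lectin, 0.414, 56.9 and 243 against at most 0.267.

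Cytosolic ribosomal protein genes rose together. Of 66 tested, 35 were called higher (53%) and none lower with limma (47 higher and none lower at an unadjusted p below 0.05), and all 66 had a positive log2 fold change, with a median of 3.29 against -0.003 over all genes. In 4-cell blastomeres 11 to 26 of the 69 genes in the table reached an FPKM of 1, and in 8-cell blastomeres 57, 57 and 60 did. Their share of all FPKM was 0.126% to 0.476% in the 7 4-cell blastomeres (0.223% ± 0.106 by embryo, SD, n = 3) and 1.41%, 1.96% and 1.52% in the 8-cell blastomeres. The groups did not overlap. Leaving out 1 8-cell blastomere gave 29 to 35 calls, leaving out 1 4-cell embryo 27 to 37, and 23 of the 35 were called without any 1 8-cell blastomere. Processed pseudogenes share sequence with these genes, so single members are less certain than the group.

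RPS3, a protein of the small subunit near the mRNA entry channel, had 0.187, 2.87 and 6.86 FPKM (lowest, median and highest) in 4-cell blastomeres and 244, 441 and 495 in 8-cell blastomeres (log2 fold change 6.56, SE 1.40, limma adjusted p = 0.00471). RPL7 of the large subunit went from at most 4.81 to 10.3, 334 and 47.4 FPKM, a rise that was lost without at least 1 8-cell blastomere. RPL4, whose promoter is shown above, had at most 34.2 FPKM in 4-cell and 281, 61.1 and 170 in 8-cell blastomeres. Lower in the range, RPS26 was at 15.5, 9.31 and 10.4 FPKM against at most 0.0271, RPL11 at 58.3, 37.0 and 41.8 against at most 0.878, and RPS4X at 75.8, 17.5 and 33.0 against at most 0.106. RPL36A, which overlaps another gene, was listed at 0 in all 4-cell blastomeres and reached 30.9, 3.97 and 11.9 FPKM. The calls of RPL39 and RPS18 were lost without 8-cell-1-4, that of RPL4 without 4-cell embryo 1 or 2, and that of RPS26 without 4-cell embryo 1 or 3. RPL30 and RPL37A separated the stages by blastomere but were not called (limma adjusted p = 0.141 and 0.165).

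**Figure D3:**
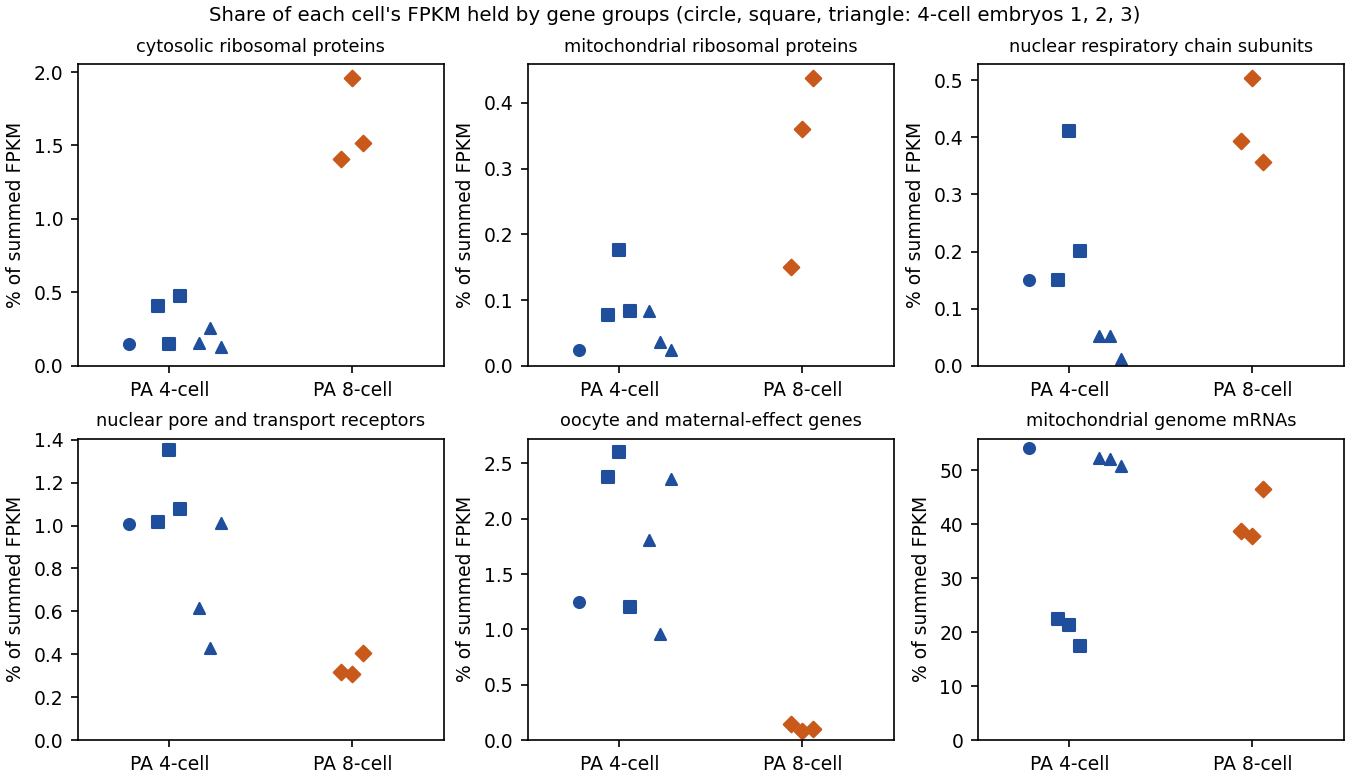
Share of each blastomere's summed FPKM (y axis, percent) held by 6 gene groups in PA 4-cell (blue, symbols by embryo) and PA 8-cell blastomeres (orange). Ribosomal proteins lie at 0.126% to 0.476% and 1.41% to 1.96%, and oocyte genes at 0.959% to 2.60% and 0.0863% to 0.149%, while mitochondrial genome mRNAs overlap between the stages and differ by embryo.

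Genes of the rest of the translation machinery rose less evenly. Among 51 translation factors, 13 rose (25.5%) and none fell (median log2 fold change 0.92). Of 102 ribosome biogenesis genes 16 rose (15.7%) and none fell (median 0.89), where 8.22% of all genes rose. The elongation factor 1 subunits that exchange guanine nucleotides included EEF1D, at 55.0, 40.8 and 34.7 FPKM against at most 0.0398, and EEF1B2, at 370, 169 and 219 against 0.161, 1.82 and 51.3. EEF1D overlaps NAPRT and EEF1B2 overlaps NDUFS1, itself called higher, so that reads of these pairs cannot be told apart without strand. EIF2S1 and EIF2S3, subunits of the factor that brings the initiator tRNA, reached 35.7, 28.6 and 3.37, and 15.97, 59.2 and 3.71 FPKM, from under 0.1 in all 4-cell blastomeres. EIF4H, a partner of the helicase eIF4A, was at 0.518, 83.4 and 178 FPKM against at most 1.18. In ribosome biogenesis, NAF1, an assembly factor of the H/ACA particles, was at 9.82, 13.6 and 7.9 FPKM against at most 0.0466, whereas DCAF13 (0.108, 187 and 34.7) and NOP2 (0.033, 0.0152 and 145) were high in 2 and in 1 of the sisters. The calls of NAF1 and DCAF13 were lost without 8-cell-1-2 and that of NOP2 without 8-cell-1-4, as was that of EIF2S3 without 8-cell-1-2. Without 8-cell-1-4, 10 ribosome biogenesis genes rose in place of 16.

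Nuclear genes for mitochondrial proteins rose in part, and the mitochondrial genome's own mRNAs did not pass the test. Of 52 mitochondrial ribosomal protein genes 11 rose (21.2%, against 8.22% of all genes) and none fell (median log2 fold change 1.04). Of 56 nuclear respiratory chain genes 14 rose (25.0%) and 1 fell (1.79%, against 1.66% of all genes), with a median of 1.35. COX7A2L, which takes part in respiratory supercomplexes, had 0.108, 0.401 and 1.7 FPKM in 4-cell blastomeres and 17.1, 31.8 and 140 in 8-cell blastomeres. The cytochrome c oxidase and ATP synthase genes NDUFA4 (6.56, 13.5 and 29.0 FPKM against at most 0.0913) and ATP5H (12.8, 14.3 and 17.9 against at most 0.174) were present in every 8-cell sister, as was MRPL1 (29.9, 7.67 and 46.9 against at most 0.0105). COX5A was uneven, at 398, 13.5 and 0.763 FPKM, and so were SDHD, at 0.0886, 161 and 0, and MRPL46, at 0, 0 and 202, whose calls were lost without at least 1 of these blastomeres. Without 8-cell-1-4, 7 mitochondrial ribosomal protein genes rose, and leaving out 1 4-cell embryo gave 13 to 22 respiratory chain genes. NDUFA2, the member that fell, was at 0 to 23.3 FPKM in 4-cell and at 0, 0 and 0.11 in 8-cell blastomeres. None of the 13 mitochondrial mRNAs was called with limma (1 higher and 1 lower at an unadjusted p below 0.05), and their summed share was 54.0%, 17.5% to 22.5% and 50.7% to 52.2% in 4-cell embryos 1, 2 and 3 and 38.7%, 37.7% and 46.5% in the 8-cell blastomeres, so that the spread between embryos (42.0% ± 18.7, SD, n = 3) covered the 8-cell mean of 41.0%. Of 21 glycolysis and pyruvate genes 3 rose (14.3%) and 1 fell. DLD, a shared subunit of the mitochondrial dehydrogenase complexes, was among the rises (0.13, 130 and 87.4 FPKM against at most 0.0473). PGK1, the gene that fell, reached 230 and 161 FPKM in 2 4-cell blastomeres and at most 0.0258 at the 8-cell stage.

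Nuclear transport genes moved both ways. Of 53 tested, 7 rose and 8 fell (13.2% and 15.1%, against 8.22% and 1.66% of all genes), with a median log2 fold change of 0.007. The group's share of FPKM was 0.430% to 1.35% in 4-cell and 0.318%, 0.306% and 0.407% in 8-cell blastomeres, which did not overlap. KPNA7 (chr3:6167385-6201259, minus strand), an importin alpha of oocytes and early embryos, was at 137, 236 and 952 FPKM (lowest, median and highest) in 4-cell blastomeres and at 0.593, 0.82 and 0 in 8-cell blastomeres, with the largest fall of all called genes whose groups did not overlap (log2 fold change -7.68, SE 0.80, limma adjusted p = 8.89e-06). IPO8 went from 16 to 116 FPKM to at most 0.196, and TNPO1, a transportin that imports RNA-binding proteins, from 178 to 947 FPKM to 54.0, 67.1 and 28.9. The scaffold nucleoporin NUP107 was at 0.468, 10.2 and 165 FPKM in 4-cell and at most 0.364 in 8-cell blastomeres. In the other direction IPO5, a receptor that also imports ribosomal proteins, was at most 0.0645 FPKM in 4-cell blastomeres and at 141, 57.7 and 65.8 in 8-cell blastomeres (log2 fold change 6.43, limma adjusted p = 0.0121). RANBP3 (0.0653, 192 and 21.8 FPKM) and NUP50 (0.0261, 65.3 and 29.7), both called higher, were near 0 in 8-cell-1-1. The call of RANBP3, which overlaps CAPS, was lost without at least 1 8-cell blastomere, and without 8-cell-1-2 the rises were 4.

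Oocyte and maternal-effect genes were the group with the most falls for its size apart from DNA methylation. Of 41 tested, 8 fell (19.5%, against 1.66% of all genes) and 1 rose, with a median log2 fold change of -1.26 and 36 negative values. Of the 8 falls 7, H1FOO excepted, were called without any 1 8-cell blastomere. The group's share of FPKM was 0.959% to 2.60% in 4-cell blastomeres (1.67% ± 0.406 by embryo, SD, n = 3) and 0.149%, 0.0863% and 0.105% in the 8-cell blastomeres. From these values fewer copies and a larger share of other RNA cannot be told apart, since FPKM is relative. BMP15, an oocyte growth factor, had 5.23, 107 and 378 FPKM in 4-cell and 0.22, 0.527 and 12.7 in 8-cell blastomeres. H1FOO, the oocyte linker histone, had 71.2, 163 and 584 against 0.497, 2.31 and 52.2, and IGF2BP3, an mRNA-binding protein, 463, 844 and 941 against 66.4, 86.2 and 0.149. ZP4 was already uneven at the 4-cell stage, at 0.327, 12.1 and 617 FPKM, and at most 0.203 at the 8-cell stage, and OOSP2, an oocyte-secreted protein, was at 582, 352 and 180 FPKM in 3 4-cell blastomeres and at most 1.31 in the other 4. IGF2BP2, the member that rose, was listed at 0 in 9 of the 10 blastomeres and had 26.7 FPKM in 8-cell-1-4, without which its call was lost.

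Among genes of mRNA decay, 5 of 49 rose (10.2%, near the 8.22% of all genes). In the same list 2 fell (4.08%, against 1.66% of all genes), and the median log2 fold change was 0.12. BTG4, the adaptor that brings the CCR4-NOT deadenylase to maternal mRNAs, had 2.03, 101 and 453 FPKM in 4-cell blastomeres and 1.1, 8.09 and 20.1 in 8-cell blastomeres, overlapping in range (log2 fold change -3.52, limma adjusted p = 0.00319). It overlaps C11orf88 on the other strand. PABPC1, the main cytoplasmic poly(A)-binding protein, also fell, from 0.0627, 40.4 and 86.6 FPKM to 0.245, 0.0662 and 8.58, while its relatives PABPC5 and PABPC4 rose, PABPC4 in 1 sister alone (152, 0.044 and 0 FPKM). The calls of PABPC1 and PABPC4 were lost without at least 1 8-cell blastomere, and without 8-cell-1-1 the rises in the group were 3.

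The DNA methylation genes that were abundant at the 4-cell stage fell. All 8 had a negative log2 fold change (median -1.43) and 2 were called lower (25%, against 1.66% of all genes). DNMT1 (chr2:68981566-69029855, minus strand), the maintenance methyltransferase, had 431, 611 and 1342 FPKM in 4-cell blastomeres and 16.9, 24.9 and 91.3 in 8-cell blastomeres, with no overlap (log2 fold change -4.04, SE 0.60, limma adjusted p = 0.000312). UHRF2, a relative of the DNMT1 cofactor UHRF1, had 43.7, 265 and 548 FPKM against 0.997, 4.07 and 158 (log2 fold change -2.58, limma adjusted p = 0.0433), a call that was lost without at least 1 8-cell blastomere. The other 6 were not called: DNMT3A, DNMT3B, TET1, TET2, TET3 and UHRF1 were at most 0.0316 FPKM in every 8-cell blastomere and varied among 4-cell blastomeres, UHRF1 from 0.0258 to 53.5 and TET1 from 0 to 12.7. The DNMT1, UHRF2 and remaining genes together held 0.338% to 0.925% of FPKM in 4-cell blastomeres and 0.0076%, 0.012% and 0.0972% in 8-cell blastomeres. Of 16 tested H3K4 methylation genes none was called with limma, where 9.87% of all genes were called (median log2 fold change -0.41, and 1 gene lower at an unadjusted p below 0.05).

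Cell cycle and genome maintenance genes changed singly. Of 77 mitotic and meiotic regulators 6 rose and 1 fell (median log2 fold change 0.07). PTTG1, the securin that holds separase until anaphase, had 172, 931 and 1888 FPKM in 4-cell blastomeres and 6.94, 4.98 and 0.465 in 8-cell blastomeres (log2 fold change -7.62, SE 0.85, limma adjusted p = 1.87e-05). In the opposite direction, the cohesin subunit STAG2 was at 0.0185, 0.0862 and 20.6 FPKM against 122, 109 and 134, and the 14-3-3 protein YWHAZ at 0.11, 19.4 and 49.5 against 185, 270 and 198. FBXO5, an inhibitor of the anaphase-promoting complex, was at 0.0632, 0.146 and 19.8 FPKM against 102, 33.5 and 52.7. UBE2C, the ubiquitin-conjugating enzyme of that complex, was called higher with 2.8, 0.251 and 139 FPKM, a call that was lost without at least 1 8-cell blastomere. These 6 are 7.79% of the list, near the 8.22% of all genes that rose. Of 47 replication genes 4 rose (8.51%, also near that share), with MCM6 of the replicative helicase at 12.2, 37.7 and 30.8 FPKM against at most 1.22. Of 41 DNA repair and p53 pathway genes 8 rose (19.5%). None of the 4 replication genes and 1 of the 8 repair genes was called in every fit without 1 8-cell blastomere.

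Several genes that govern apoptosis rose, on both sides of the balance. Of 16 tested genes of the BCL2 family, the caspases and inhibitors of apoptosis, 4 rose (25%) and 1 fell (6.25%), against 8.22% and 1.66% of all genes. Where 1 4-cell embryo was left out, 2 to 3 rose. The caspase inhibitor XIAP was at 10.1, 74.6 and 24.0 FPKM in 8-cell blastomeres against at most 0.65. The anti-apoptotic MCL1, which overlaps ENSA, was at 137, 55.2 and 19.95 against a median of 0.0875 and a highest of 46.0, and the pro-apoptotic BID at 262, 256 and 0.00774 against a median of 0.132 and a highest of 17.0. BIRC3, another inhibitor of apoptosis, fell from 0.0944, 19.1 and 33.1 FPKM (lowest, median and highest) to 0.0366, 0.0547 and 1.69. The calls of MCL1 and BIRC3 were lost without 8-cell-1-1, and that of BIRC3 also without 8-cell-1-2, while those of XIAP and BID were kept without any 1 8-cell blastomere.

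General housekeeping machines held smaller shares of called genes than the ribosome. Proteasome genes rose in 5 of 37 (median log2 fold change 1.40), but none of the 5 was called in every fit without 1 8-cell blastomere. Spliceosome and hnRNP genes rose in 9 and fell in 1 of 67 (median 0.68), RNA polymerase II, general factor and Mediator genes rose in 10 of 63 with no fall (median 0.03), and heat shock and chaperonin genes rose in 3 of 26 (median 1.43). Against the 8.22% of all genes that rose, these are 13.5%, 13.4%, 15.9% and 11.5%. MED7 of the Mediator complex was at 7.46, 90.6 and 7.56 FPKM against at most 0.0769, a call lost without 8-cell-1-2, and SF3B5 of the U2 particle at 106, 168 and 0.0612 against at most 0.895. PRPF38A, which overlaps ORC1, fell from 3.02 to 74.9 FPKM to at most 2.42. The calls of PRPF38A and of NDUFA2 above were lost without 4-cell embryo 1.

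The transcription factors of pluripotency that the study follows did not pass the test. Of 21 listed genes 1 was called (4.76%, against 9.87% of all genes tested). NANOG had 4.71, 134 and 264 FPKM (lowest, median and highest) in 4-cell and 79.2, 47.6 and 75.1 in 8-cell blastomeres, and SALL4 1.47, 75.1 and 101 against 107, 224 and 78.7. Both were thus present in every 8-cell blastomere, NANOG within its 4-cell range and SALL4 above its range in 2 of 3 blastomeres (limma adjusted p = 1 and 0.548). KLF4 had 1.56, 24.7 and 309 FPKM against 67.6, 31.9 and 169, and KLF17 0.118, 2.83 and 234 against 1.51, 125 and 0.0579. POU5F1 was at 199 FPKM in 1 4-cell blastomere, at most 1.83 in the other 6 and at 0, 0.0486 and 0 in the 8-cell blastomeres. OTX2 (0.154, 0.193 and 34.7 FPKM) and TBX3 (60.1, 3.98 and 1.35) were uneven among sisters and not called. ESRRB, the gene that was called, was listed at 0 in all 4-cell blastomeres and at 0.0143, 0.0704 and 61.8 FPKM at the 8-cell stage, and its call was lost without 8-cell-1-4. Of 29 lineage, Hippo and adhesion genes 1 rose (3.45%, against 8.22% of all genes). It was NF2, at 5.81, 35.9 and 0 FPKM against at most 0.159, a call lost without at least 1 8-cell blastomere. No imprinted gene was called with limma among 6 expressed from the paternal and 1 expressed from the maternal copy, or had an unadjusted p below 0.05.

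**Figure D4:**
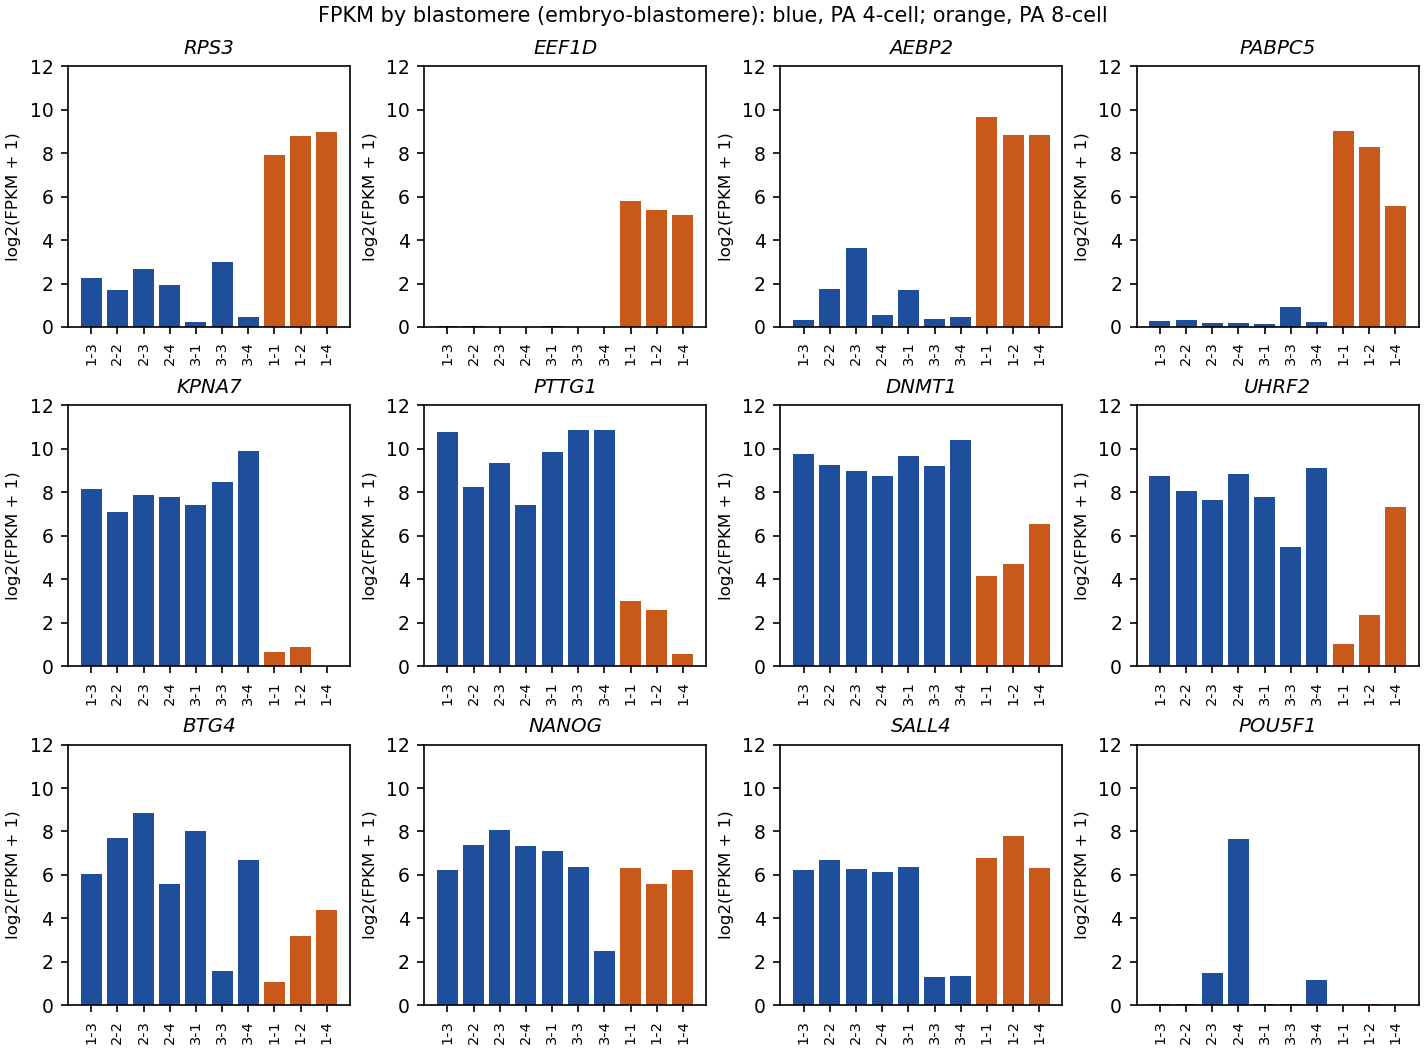
Level of 12 genes as log2(FPKM + 1) (y axis, bars from 0) in each of the 7 PA 4-cell (blue) and 3 PA 8-cell (orange) blastomeres, named by embryo and blastomere. RPS3, EEF1D, AEBP2 and PABPC5 are high in all 3 8-cell blastomeres, KPNA7, PTTG1 and DNMT1 in all 7 4-cell blastomeres, while NANOG lies within its 4-cell range in all 3 8-cell blastomeres and SALL4 above its 4-cell range in 2 of them.

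The most abundant nuclear transcripts changed in part. Of the 20 genes with the highest mean FPKM in each stage, 7 were in both lists. CDV3, which led at the 4-cell stage, had an embryo mean of 4010 FPKM there and 3889 at the 8-cell stage, and NUDT4, a diphosphoinositol polyphosphate phosphatase, 1520 and 1619. PTTG1, DNMT1, IGF2BP3 and TNPO1 were in the 4-cell list alone and fell, as described. FTL, the ferritin light chain that stores iron, was in the 8-cell list with 3264, 50.9 and 763 FPKM in the 3 sisters and rose from 274 FPKM (log2 fold change 2.34, limma adjusted p = 0.031), though its ranges overlapped and it overlaps GYS1. MPZL2, a junctional adhesion protein, rose to 2484, 452 and 89.2 FPKM from 0.593, 1.17 and 159. The calls of FTL and MPZL2 were lost without 8-cell-1-1.

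How alike blastomeres were depended on the measure, and the values are given without a test. Pearson's r of log2(FPKM + 1) was 0.443 to 0.466 in the 3 pairs of 8-cell sisters, 0.356 to 0.428 in the 6 pairs of 4-cell sisters and 0.357 to 0.443 in the 15 pairs from different 4-cell embryos. Pairs of a 4-cell and an 8-cell blastomere gave 0.269 to 0.337 (21 pairs). Spearman's rho was 0.6287 for 8-cell-1-1 with 1-2 but 0.4485 and 0.455 for the pairs with 8-cell-1-4, which has fewer genes above 0, against 0.534 to 0.604 among all pairs of 4-cell blastomeres. The genes that both blastomeres of a pair had at an FPKM of at least 1 were 30.2% to 32.7% of those that either had among 8-cell sisters, 22.6% to 30.9% among 4-cell sisters, 23.2% to 31.7% between 4-cell embryos and 20.5% to 27% between the stages. All pairs share amplification and, within an embryo, culture, so the values describe these cells.

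The same step in IVF embryos gave 280 rises (3.49% of genes tested) and 205 falls (2.55%). It shares no sample with the PA step, but both were tested in the same fit, with the same spread for each gene. The calls of the 2 steps are therefore not independent. Of the 660 genes that rose in PA embryos, 109 also rose in IVF embryos, which is 16.5% of the former and 38.9% of the latter, and 14 fell. Of the 133 that fell in PA embryos, 52 fell in IVF embryos (39.1%, and 25.4% of the IVF falls) and none rose, and 123 had a negative IVF log2 fold change. Across the 8033 genes the 2 steps had a Pearson's r of 0.32 and a Spearman's rho of 0.30, over genes, which are not independent. In both steps KPNA7 (-7.68 and -6.14), PTTG1 (-7.62 and -7.10), SYCN (-7.05 and -6.67) and DNMT1 (-4.04 and -3.996) were called lower on the log2 scale, and EEF1D, GAR1, MPC1, COX5A and SORD were called higher. The ribosomal proteins rose in 11 of 66 in IVF embryos, with a median log2 fold change of 2.49, and limma called no member different between the steps, with 6 at an unadjusted p below 0.05.

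The test of the difference between the steps called 245 genes, 189 with the PA change above the IVF change (2.35% of genes tested) and 56 below (0.697%). The median difference was 0.49 on the log2 scale. PABPC5 was at most 0.0148 FPKM in IVF 4-cell blastomeres and listed at 0 in all 3 IVF 8-cell blastomeres, and its PA change exceeded the IVF change by 7.87 (limma adjusted p = 2.43e-05). DNAJC2, a ribosome-associated chaperone, was at 292, 341 and 0.0314 FPKM in the PA and at most 0.291 in the IVF 8-cell embryo. Below the IVF step stood BSG, a membrane glycoprotein that escorts lactate transporters, with 127, 115 and 59.7 FPKM in IVF and 0.292, 0.209 and 0.193 in PA 8-cell blastomeres (difference -9.17, limma adjusted p = 0.00486). QARS, the glutaminyl-tRNA synthetase, which overlaps QRICH1, was at 327, 45.3 and 21.8 FPKM in the IVF and at 0 in all 3 PA 8-cell blastomeres. NUP107 was at 0.125, 153 and 141 FPKM in the IVF 8-cell blastomeres and FMNL2 at 0.111, 0.232 and 160, where no PA 8-cell blastomere exceeded 0.364. From the summed FPKM of Y-linked genes the study typed the IVF 8-cell embryo and most IVF 4-cell embryos as male, and all PA embryos as female. With 1 embryo for each 8-cell group, differences between these embryos, between their sexes and between the methods cannot be told apart, which includes the X-linked PABPC5. Without PA 8-cell-1-4, 148 differences lay above and 68 below.

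**Figure D5:**
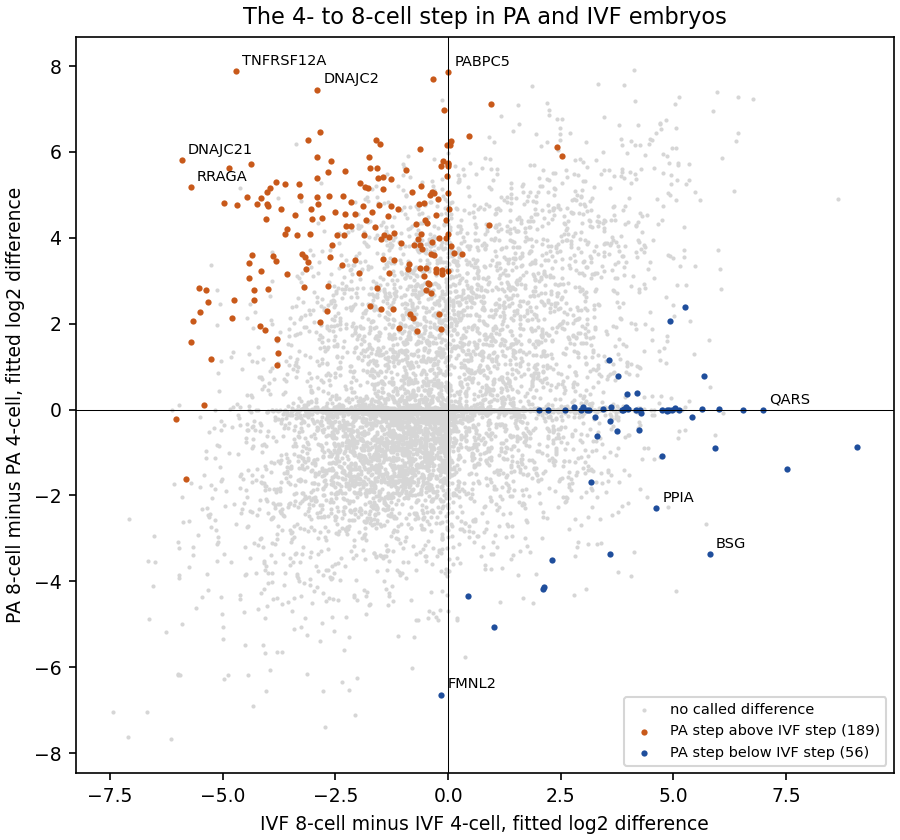
Fitted log2 difference of the 4- to 8-cell step in IVF embryos (x axis) and in PA embryos (y axis) for the 8033 tested genes. The PA step was called above the IVF step for 189 genes (orange), PABPC5 among them, and below it for 56 genes (blue), such as BSG and FMNL2.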

How the data were processed

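Single blastomeres of pig embryos were amplified with Ansuper-seq, a method for transcripts with or without a poly(A) tail, and sequenced in pairs on a HiSeq X-Ten. According to the methods of the study, reads were aligned to Sscrofa11.1 with Hisat2 and assembled and counted with StringTie and HTSeq. The values the authors deposited are FPKM per gene for 42 cells. Tool versions, annotation release, strandedness and molecular identifiers are not given in the sources used here, and the protocol in the labels describes another extraction and library kit. Without strand, overlapping genes cannot be told apart.

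Whole reads were recovered from the FPKM steps for 14691 of 14692 expressed genes (tolerance 0.05 read) to give depth, and were not tested. FPKM was averaged over the blastomeres of an embryo, as separate samples of 1 embryo are not replicates. limma 3.58.1 (R 4.3.3, trend) was fitted on log2(FPKM + 1) of 20 embryos in all 8 groups (12 residual degrees of freedom), for 8033 genes at an FPKM of at least 1 in 3 or more cells. p-values were two-sided. Calls needed an adjusted p below 0.05 and a change of 2 times or more. The script was tested on simulated data. Where embryos of a group shared a culture is not given. The p-values measure the spread between embryos pooled over the 6 groups of 3 embryos, and hold none from the lone 8-cell embryos.

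Named genes were the 10 largest rises and falls of protein-coding genes with a symbol and groups that did not overlap, up to 3 called genes in each direction per list, the genes the study follows, and 5 per direction for the difference between PA and IVF. Genes of the on and off sets, the most abundant and X-linked genes, and further members given as examples were chosen after their values were seen. The comparison and the gene lists were chosen with earlier results of these data known. Symbols came from the table for 12529 of 15351 genes, from a gene name table for 839 and from RefSeq positions for 384. Promoters were read from RefSeq's Sscrofa11.1. A few single genes are counted in the totals but not reported here.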

Additional observations from a re-analysis of the deposited data

Results flagged for a closer look

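Of 28 measures tested over the 7 PA 4-cell blastomeres for 1 value far from the rest, which chance flags in about 1 of 20, 2 were picked out. The share of FPKM in mitochondrial ribosomal protein genes was 0.177% in PA 4-cell-2-3, with the nearest at 0.0839% and the lowest at 0.0238%. The share of imprinted genes expressed from the maternal copy was 0.0018116% in PA 4-cell-2-4, with the nearest at 6.75e-05%.

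The 4- to 8-cell step differed between PA and IVF embryos (limma, all with an adjusted p below 0.05) by 12.6 on the log2 scale for TNFRSF12A, a receptor of the TNF family, which was at 0, 0 and 704 FPKM in the PA 8-cell blastomeres. The difference was 11.7 for DNAJC21, a cofactor of ribosome maturation (0.289, 404 and 1.55 FPKM), 10.9 for RRAGA, a GTPase of amino acid sensing (0.516, 2.18 and 249 FPKM), 10.5 for HMG20B (0.0837, 160 and 0 FPKM) and 10.4 for DNAJC2. All these positive differences exceed 7.90, the largest rise called in the PA step, so each also holds a fall in the IVF step. The difference was -9.17 for BSG, -7.00 for QARS, -6.94 for RNF168, a ubiquitin ligase of the DNA damage response, -6.92 for PPIA, a peptidyl-prolyl isomerase, and -6.81 for CMSS1, which overlaps FILIP1L. These fitted differences depend on the pseudocount, most of all for TNFRSF12A, which was listed at 0 in all PA 4-cell blastomeres. Each 8-cell group was 1 embryo, and TNFRSF12A, DNAJC21, RRAGA and HMG20B were high in 1 PA blastomere only, and their own PA calls were lost without it (8-cell-1-4 for TNFRSF12A and RRAGA, 8-cell-1-2 for DNAJC21 and HMG20B).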

How the results depend on the processing

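The count of genes that rose was 1171 with median-ratio scaling, 385 with the mean of log2 values per embryo, 357 with blastomeres as units and the embryo as a random effect, 358 with the PA groups alone, and 0 with PA 4- and 8-cell embryos alone. The count that fell was 260, 79, 82 and 0 under median-ratio scaling, the mean of log2 values, the random effect and the 4- and 8-cell embryos alone, and 258 with the 2 near-repeat cells kept, where 68.2% of calls were higher and the median of all genes shifted by -0.151. Leaving out 1 blastomere or embryo at a time gave 573 to 795 rises and 107 to 232 falls, the latter without 4-cell embryo 1, where 71.5% of calls were higher. The difference from the IVF step was called for 157 genes with a pseudocount of 0.1, 456 with 5, 747 without a filter, 126 with a filter at an FPKM of 5, 1037 with median-ratio scaling, 50 with the mean of log2 values, 74 with the random effect, and 216 to 363 when leaving 1 blastomere or embryo out. The cause of these changes was not tested.

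Of 113 named genes 85 were called, and 75 of those kept their direction under every alternative run. Calls were lost for 28 of 85 with the random effect, 24 with the mean of log2 values, 14 of 78 with the PA groups alone and all 51 that could be tested with PA 4- and 8-cell embryos alone. Leaving out 1 PA 8-cell blastomere at a time, the log2 fold change ran from -0.48 to 6.19 for MRPL46, -0.025 to 4.73 for PSMD7, -0.75 to 6.03 for LSM1, 0 to 3.84 for IGF2BP2, -0.061 to 6.18 for PABPC4, -0.015 to 4.88 for PRIM1, -0.036 to 5.33 for NR5A2, -0.33 to 6.40 for DNAJC21, -0.0028 to 5.75 for RRAGA and -0.080 to 6.205 for HMG20B. Embryo numbers did not pair the samples, as 0 of 45 pairs with the same number had a correlation of deviations above 0.1 (-0.0407 to 0.0785). With embryo number as a replicate block, 688 genes rose, 127 fell and 192 differed from the IVF step. Depth was 7124861 to 18810466 reads on genes per cell, counted without known molecular identifiers, and the 8-cell stage had 1 embryo, so that its own spread between embryos could not be measured.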
